A study of Mus musculus with 12 samples.

Results

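The 28 genes described here encode enzymes of cholesterol synthesis from acetyl-CoA to cholesterol, the proteins that control that pathway through the transcription factor SREBP2, and 4 proteins that move or store sterol. They were picked by name as members of the pathway, with no rule on their measured values but with earlier results of these data known, and all 28 were present in the table of 24421 genes and among the 13880 genes with enough counts to test. They fall into 6 enzymes of the first steps (Acat2, Hmgcs1, Mvk, Pmvk, Mvd, Idi1), 3 of the isoprenoid stretch (Fdps, Ggps1, Fdft1), 11 of the sterol stretch (Sqle, Lss, Cyp51, Tm7sf2, Msmo1, Nsdhl, Hsd17b7, Ebp, Sc5d, Dhcr7, Lbr), 4 control proteins (Insig1, Insig2, Scap, Srebf2) and 4 genes of sterol handling (Stard4, Npc1, Npc2, Soat2).

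RNA was sequenced from liver tissue free of tumour of 12 male mice aged 4 months, 3 in each of 4 groups: LiK and LiKM mice, each kept on a normal diet or on a diet that held ACR at 0.06% and began at an age of 5 weeks. The labels give only the strain names. From what is known of the study, and not from the labels, ACR is acyclic retinoid (peretinoin), a vitamin A analogue, and LiKM mice were made to lose hepatocyte Mdm2, which marks p53 for degradation. The labels name no Cre driver and no count of animals behind the sampled tissue beyond the numbered mice. Mdm2 stood at 21.6 to 25.8 CPM (counts scaled to the library total) in the 6 LiK livers and at 29.0 to 67.2 CPM in the 6 LiKM livers. A count over the whole gene also takes reads from exons outside a deleted stretch, so it does not check the genotype.

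Cells build cholesterol when sterol in the endoplasmic reticulum is low: SCAP then carries SREBP2 to the Golgi, where it is cut, and the freed part enters the nucleus and turns on the genes of the pathway together with NF-Y and SP1. When sterol is high, the INSIG proteins hold SCAP back and the whole set goes down. In liver the pathway also follows feeding and the time of day, and it feeds lipoproteins and bile acids.

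Library totals ran from 10124813 to 18647156 expected counts, and levels are given as CPM scaled with TMM factors, which allow for differences in RNA makeup between libraries. Hepatocyte markers were high in all 12 livers (albumin 65980 to 130900 CPM). Nr1d1, a receptor gene driven by the daily clock, was 16.1 to 27.2 CPM in the LiK livers of the normal diet and 136 to 181 CPM in those of ACR. In LiKM it was 214.5 CPM in number 3 on the normal diet, 81.2 CPM in number 3 on ACR and 7.12 to 20.7 CPM in the other 4 livers. The labels give no hour of collection. Because Nr1d1 does not overlap between the diets in LiK, nor between the strains on ACR, clock state cannot be told apart from diet in LiK or from strain on ACR. The sample identifiers begin with KM or MP, a difference the labels do not explain. LiK normal 2 and 3 and LiKM ACR 3 are MP, and the other 9, with all LiK livers on ACR, are KM.

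Sequences before the start site are shown for 4 members that span the responses below: Hmgcs1 and Mvd, early enzymes with high values in LiK on ACR, Sc5d, the member of highest level per length in LiK on the normal diet, and Ebp, which was not higher in LiK on ACR. They are the 250 bases before the RefSeq start (GRCm38.p6, the build called mm10), 5′ to 3′ on the gene's strand. Capitals mark a sterol response element of the spelling TCACNCCAC, an E-box CACGTG, and CCAAT, the box read by NF-Y, each on either strand (CCAAT on the other strand reads ATTGG).
Hmgcs1 (chr13:119690101-119690350, plus strand): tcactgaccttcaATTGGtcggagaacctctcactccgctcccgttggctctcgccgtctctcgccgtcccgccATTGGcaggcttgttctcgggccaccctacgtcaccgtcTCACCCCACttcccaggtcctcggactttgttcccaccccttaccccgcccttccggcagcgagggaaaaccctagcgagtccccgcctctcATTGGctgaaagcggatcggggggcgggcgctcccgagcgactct
Mvd (chr8:122443423-122443672, minus strand): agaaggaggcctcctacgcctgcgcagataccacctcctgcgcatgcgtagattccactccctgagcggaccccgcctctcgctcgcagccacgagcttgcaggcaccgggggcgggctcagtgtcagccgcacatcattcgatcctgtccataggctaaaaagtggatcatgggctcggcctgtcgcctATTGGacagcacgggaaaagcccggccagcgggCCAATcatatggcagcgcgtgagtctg
Sc5d (chr9:42264301-42264550, minus strand): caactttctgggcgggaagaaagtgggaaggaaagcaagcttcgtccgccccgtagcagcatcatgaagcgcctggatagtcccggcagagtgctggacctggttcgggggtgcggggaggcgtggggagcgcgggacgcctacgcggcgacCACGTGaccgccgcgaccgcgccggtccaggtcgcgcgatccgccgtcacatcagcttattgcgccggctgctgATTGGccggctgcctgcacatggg
Ebp (chrX:8193513-8193762, minus strand): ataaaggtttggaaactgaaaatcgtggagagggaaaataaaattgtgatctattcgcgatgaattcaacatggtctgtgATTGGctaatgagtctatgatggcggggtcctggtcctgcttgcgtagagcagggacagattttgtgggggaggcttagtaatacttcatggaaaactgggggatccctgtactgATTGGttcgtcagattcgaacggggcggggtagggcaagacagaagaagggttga

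The RefSeq promoter table matched 22 of the 28 members with 28 start sites, some of whose windows overlap. Fdps, Fdft1, Sqle, Stard4, Npc1 and Soat2 had no entry. CCAAT lay in 71.4% of the 28 member windows and in 33.8% of all 32851 windows of the same length, and 20 of the 22 members had it at 1 start site or more, all but Acat2 and Scap. The GC box GGGCGG, a site of SP1, lay in 78.6% of member windows against 32.7% of all. CACGTG lay in 17.9% of member windows against 6.02% of all (Hsd17b7, Sc5d, Dhcr7, Insig1 and Scap), and TCACNCCAC in Hmgcs1 only, against 1.05% of all windows. Ebp carries 2 CCAAT matches, as Mvd does, and Hmgcs1 carries 3 beside its sterol response element. These are matches of letters, not shown sites of binding.

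Per kilobase of exon (union of exons, GENCODE M21), the levels in LiK livers on the normal diet spanned a wide range. Sc5d, the sterol C5 desaturase, had a mean of 107 CPM per kb and Insig1 106 CPM per kb, followed by Ebp at 70.6 and Fdps at 60.4. Mvd at 4.85, Mvk at 4.37, Lbr at 2.90 and Ggps1, which makes geranylgeranyl diphosphate for protein prenylation, at 1.49 CPM per kb were the lowest. Hmgcs1 lies on chr13:119690379-119708260 (plus strand), Tm7sf2 on chr19:6062821-6068373 (minus), Hsd17b7 on chr1:169949535-169969241 (minus), Idi1 on chr13:8885501-8892451 (plus) and Ebp on chrX:8185329-8193512 (minus) of mm10. Exons of Ggps1, Fdft1, Cyp51, Lbr and Npc1 overlap a coding gene on the other strand, and those of Fdps and Tm7sf2 one on their own strand. Sc5d has values that are not whole numbers in all 12 libraries, as arises where reads are shared with other genes, so its level is uncertain. Such values also occur in Fdft1 (8 libraries), Acat2 and Npc1 (7 each), Tm7sf2 (5) and Lss (4). Ggps1 and Soat2 have them in 3 libraries each, Fdps in 2 and Cyp51 in 1. The same caution holds for these genes.

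**Figure D1:**
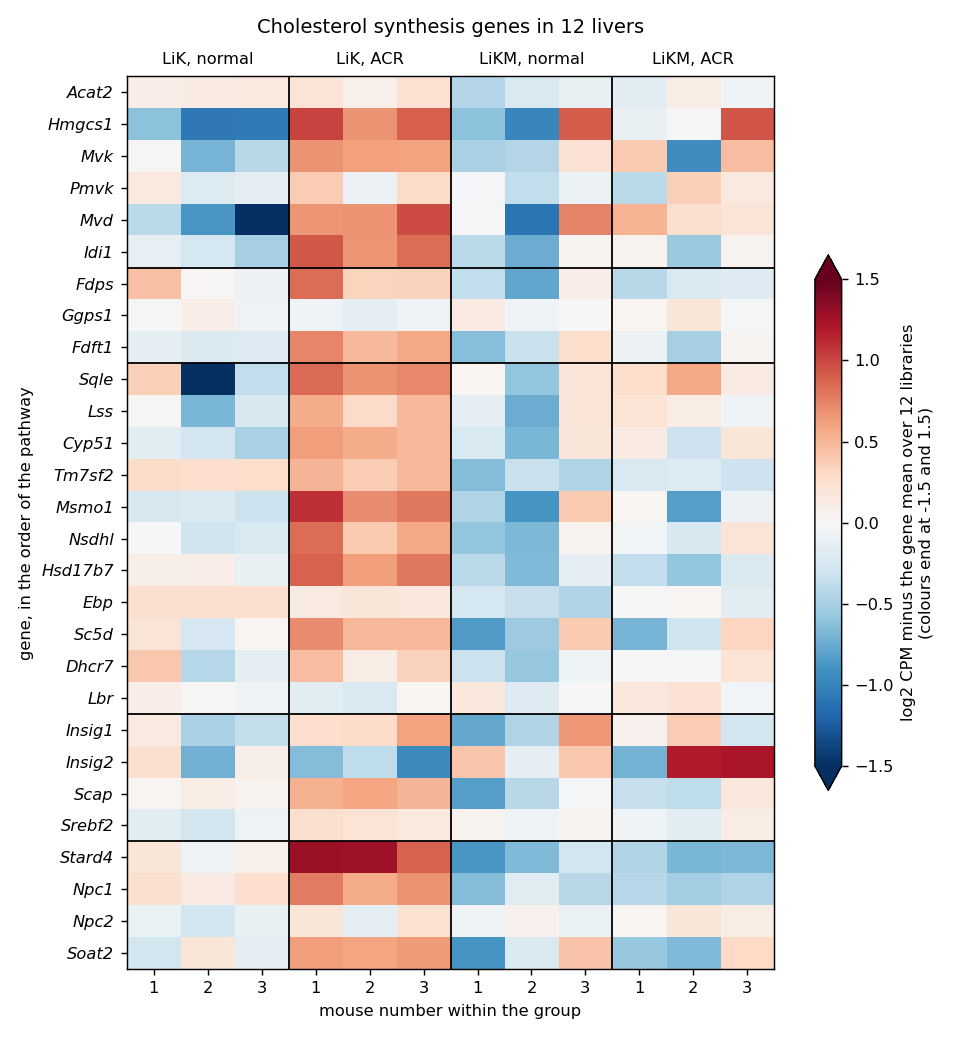
Heat map of log2 CPM of the 28 genes (rows, in pathway order, lines between the 5 roles) in the 12 livers (columns, mouse number within each group), each as the difference from the gene's mean over 12 libraries. The 3 LiK livers on ACR hold the highest value of 23 of the 28 genes (18, 1 and 4 in mice 1, 2 and 3).

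In LiK livers the level of most of these genes was higher on ACR than on the normal diet, in each stretch of the pathway, and 1 of them, Stard4, passed the test. Of the 28 genes, 24 had a fold change above 0 in LiK (median log2 0.59, against 0.01 over all 13880 genes), and 19 had all 3 ACR livers above all 3 livers on the normal diet, a pattern shown by 13.4% of all genes. The median log2 fold change was 1.04 for the 6 first enzymes, 0.38 for the isoprenoid stretch, 0.72 for the sterol stretch, 0.42 for the control genes and 0.58 for sterol handling. With edgeR's quasi-likelihood test over all 12 libraries and Benjamini-Hochberg adjustment over all genes, 1 member, Stard4, passed the adjusted threshold of 0.05, where 0.195% of all genes passed (0.13% as higher), and 16 of the 28 had an unadjusted p under 0.05, against 14.1% of all genes. Other fits called more: 11 rose with DESeq2 (1.65% of all genes higher) and 15 with only the 6 LiK libraries in the fit (2.72% higher). Same-numbered LiKM mice were paired across the diets from correlations in these data, not from the labels. With a replicate block for those numbers 15 members rose in LiK (2.14% of all genes higher). Chosen from the same data, the block gives no independent support for its calls, here or gene by gene below. For Hmgcs1 the log2 fold change in LiK was 1.77 in both fits, with an SE of 0.46 without the block and 0.18 with it. Of 18 clock genes 0 passed in this comparison. With the first 2 principal components of the clock genes as covariates in the edgeR fit, 0 members passed, as for all genes (0% of 13880). Clock state cannot be told apart from diet in LiK, so that fit does not separate them. In that fit 5 members had an unadjusted p under 0.05, against 7.2% of all genes, and the median log2 of the 28 was 0.23. The count of 1 was 0 without any single one of LiK normal 1, 2 or 3 or LiK ACR 1 or 2, where 0% to 0.0848% of all genes passed. It was 9 without LiKM normal 3 (0.77% of all genes), 2 without LiKM ACR 2 (0.29%) and 3 without LiKM ACR 3 (0.376%).

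Stard4, which carries cholesterol between membranes and is a known SREBP2 target, had 91.1, 76.2 and 84.8 CPM in the LiK livers of the normal diet and 197.6, 194.9 and 148.0 CPM on ACR. In LiKM it was 43.9, 50.9 and 66.3 CPM without ACR and 58.7, 50.0 and 50.3 CPM on ACR. All 3 LiK livers on ACR lay above every other liver, and the LiKM groups overlapped. The log2 fold change was 1.10 ± 0.16 (SE) in LiK (edgeR adjusted p = 0.02) and -0.02 ± 0.16 in LiKM. The call in LiK was lost when any of LiK normal 1, 2 or 3 or LiK ACR 1 or 2 was left out (adjusted p up to 0.124), and also when KM or MP entered the edgeR fit as a term (adjusted p = 0.0664, log2 1.01), while with single mice left out the log2 fold change stayed between 1.03 and 1.25.

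Hmgcs1, which makes HMG-CoA at the entry of the pathway, had the largest fold of the 28 in LiK. It was 115.1, 84.0 and 84.3 CPM without ACR and 355.4, 281.3 and 327.8 CPM on ACR, a fitted 3.4-fold difference with no overlap (log2 1.77 ± 0.46, edgeR adjusted p = 0.144, and 0.00167 with the block). In LiKM it was 115.5, 89.7 and 332.2 CPM without ACR and 163.0, 176.2 and 340.4 CPM on ACR. Number 3 of each LiKM group was as high as the LiK livers on ACR, and the SD was 133 and 98.9 CPM in the LiKM groups against 17.9 and 37.4 CPM in the LiK groups.
Mvd, the decarboxylase that yields isopentenyl diphosphate, was 9.02 ± 3.70 CPM on the normal diet and 29.0 ± 3.72 CPM on ACR in LiK (SD, n = 3; log2 1.68 ± 0.40, edgeR adjusted p = 0.119, and 0.0458 with the block). Mvk, mevalonate kinase, was 11.7 ± 2.99 and 22.9 ± 0.611 CPM (SD, n = 3). In LiKM, Mvd was 17.6 ± 10.3 and 21.1 ± 2.66 CPM and Mvk 12.8 ± 3.76 and 15.8 ± 7.10 CPM, and the diets overlapped for both. Idi1, the isomerase that makes dimethylallyl diphosphate, was 105.0, 95.6 and 81.0 CPM without ACR and 218.0, 182.0 and 205.2 CPM on ACR in LiK (log2 1.10 ± 0.21, edgeR adjusted p = 0.0613, and 0.00159 with the block). Its LiKM values, 86.4, 68.5 and 118.0 CPM and then 118.9, 78.1 and 118.7 CPM, overlapped between the diets. Pmvk, phosphomevalonate kinase (42.6 ± 5.63 and 51.0 ± 8.40 CPM in LiK), and Acat2, the cytosolic thiolase at the first step, overlapped between the diets in both strains. Acat2 was 121.4, 123.1 and 124.9 CPM without ACR and 129.9, 119.0 and 132.9 CPM on ACR in LiK.

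In the isoprenoid stretch, Fdft1 (squalene synthase, the first step bound for sterol alone) was 83.8, 79.6 and 81.0 CPM without ACR and 153.7, 129.5 and 138.3 CPM on ACR in LiK (log2 0.79 ± 0.20, edgeR adjusted p = 0.133, and 0.0104 with the block). Its LiKM values were 59.3, 73.5 and 111.4 CPM and 87.3, 65.5 and 95.3 CPM. The LiK diets did not overlap and the LiKM diets did. Fdft1 shares 774 of its 4227 exonic bases with Ctsb on the other strand, and whether reads were counted by strand is not given in the sources used. Fdps, which makes farnesyl diphosphate, was 311.9, 232.3 and 216.3 CPM against 411.5, 289.0 and 291.1 CPM in LiK, with overlap. Ggps1, on the side branch to prenylation, stayed at 6.39 CPM or above in all 12 livers, with means of 7.04 and 6.63 CPM in LiK and 7.15 and 7.35 CPM in LiKM.

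In the sterol stretch, 8 of 11 enzymes had all LiK livers on ACR above all on the normal diet (Sqle, Lss, Cyp51, Tm7sf2, Msmo1, Nsdhl, Hsd17b7 and Sc5d). Sqle, squalene epoxidase and a rate-limiting step, was 116.5, 12.6 and 70.4 CPM without ACR and 164.3, 145.2 and 150.6 CPM on ACR (log2 1.21 ± 0.56, edgeR adjusted p = 0.366). Number 2 on the normal diet stood far below the other 11 livers. In LiKM it was 92.7, 60.4 and 104.4 CPM and 109.4, 136.3 and 99.1 CPM, with overlap between the diets. Msmo1, the C4 methyl oxidase, was 64.0, 65.0 and 60.6 CPM and then 161.5, 123.8 and 130.9 CPM in LiK (log2 1.13 ± 0.30, edgeR adjusted p = 0.144, and 0.00511 with the block). Its LiKM values of 55.1, 40.8 and 99.6 CPM and 77.3, 42.7 and 71.2 CPM overlapped between the diets. Hsd17b7, the 3-ketosteroid reductase of the same demethylation complex, was 59.0, 59.7 and 51.8 CPM and then 102.8, 85.9 and 96.5 CPM in LiK (log2 0.74 ± 0.14, edgeR adjusted p = 0.0621, and 0.00294 with the block). In LiKM it stood at 41.9, 35.1 and 50.7 CPM and at 43.1, 37.4 and 48 CPM, below every LiK liver. On the normal diet and on ACR in LiK, Cyp51 (lanosterol demethylase) was 93.2 ± 10.4 and 169 ± 8.11 CPM, Nsdhl (a C4 decarboxylating dehydrogenase) 51.2 ± 5.52 and 88.2 ± 13.6 CPM, Lss (lanosterol synthase) 67.4 ± 16 and 111 ± 10.8 CPM and Sc5d 521 ± 78.8 and 774 ± 66.6 CPM (SD, n = 3). Cyp51, Nsdhl and Sc5d passed with the block (edgeR adjusted p = 0.0026, 0.0086 and 0.0262) and not without it, and Lss passed in neither fit. The block was chosen from these data, so its calls give no independent support.

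The other 3 enzymes of the sterol stretch, Ebp, Dhcr7 and Lbr, did not stand above the normal diet in all LiK livers on ACR. Ebp, the sterol isomerase, was 163.1, 163.4 and 163.8 CPM without ACR and 151.4, 157.4 and 154.2 CPM on ACR in LiK, lower in all 3, and 115.1, 109.0 and 101.3 CPM and then 138.4, 141.8 and 124.2 CPM in LiKM, higher in all 3. Neither change passed in edgeR (log2 -0.08 ± 0.09 and 0.31 ± 0.09, adjusted p = 0.7 and 0.382), and with DESeq2 Ebp rose in LiKM (adjusted p = 0.0453). Dhcr7, the last reductase, overlapped between the diets in LiK (96.0 ± 29.2 and 121 ± 14.4 CPM) and not in LiKM (78.5 ± 13.7 and 101 ± 8.76 CPM), with adjusted p = 0.472 and 0.776 in edgeR. Lbr, a nuclear envelope protein with sterol C14 reductase activity, stayed between 11.6 and 15.8 CPM everywhere, while Tm7sf2, the other C14 reductase, stood at 102.1, 100.3 and 100.7 CPM and then 119.4, 109.1 and 119.0 CPM in LiK, and at 53.6, 66.6 and 61.7 CPM and then 71.6, 73.1 and 67.9 CPM in LiKM. Its diet difference was log2 0.20 ± 0.09 in LiK and 0.23 ± 0.10 in LiKM and passed in neither (edgeR adjusted p = 0.37 and 0.644).

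Among the control genes, Srebf2, which encodes SREBP2 and is also its target, was 42.3, 38.9 and 44.6 CPM without ACR and 55.7, 54.5 and 52.2 CPM on ACR in LiK (log2 0.37 ± 0.10, edgeR adjusted p = 0.144, and 0.0323 with the block). In LiKM it was 49.1, 44.9 and 48.5 CPM and then 45.4, 42.0 and 50.8 CPM, with overlap. Scap was 123.3, 130.8 and 126.3 CPM and then 175.4, 183.1 and 172.9 CPM in LiK (log2 0.48 ± 0.19, edgeR adjusted p = 0.282, and 0.0141 with the block), and 68.2, 90.8 and 119.2 CPM and then 95.7, 93.4 and 136.5 CPM in LiKM. Both genes were higher in every LiK liver on ACR than in every LiK liver on the normal diet.
The INSIG pair had opposite signs in LiK. Insig1, the form that SREBP2 itself turns on, was 415.6, 270.1 and 296.0 CPM and then 451.3, 460.3 and 575.5 CPM in LiK, and 223.4, 276.7 and 595.6 CPM and then 396.5, 496.2 and 313.3 CPM in LiKM. Insig2, the form of the fasted liver, was 240.2, 123.4 and 215.6 CPM and then 129.5, 155.9 and 104.5 CPM in LiK, and 270.8, 185.1 and 268.7 CPM and then 124.6, 462.6 and 476.8 CPM in LiKM. These diet differences did not pass, with log2 0.60 ± 0.33 for Insig1 and -0.57 ± 0.43 for Insig2 in LiK (edgeR adjusted p = 0.435 and 0.574). Numbers 2 and 3 of LiKM on ACR held the highest Insig2 levels of the 12 livers.

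Of the other sterol-handling genes, Npc1, the lysosomal exporter of cholesterol, was 166.7, 152.9 and 167.9 CPM and then 240.8, 207.6 and 225.0 CPM in LiK (log2 0.47 ± 0.12, edgeR adjusted p = 0.135, and 0.0334 with the block). In LiKM it was 90.0, 125.8 and 105.2 CPM and then 104.7, 98.4 and 102.8 CPM, below all LiK livers on either diet. Soat2, which makes cholesteryl ester in hepatocytes, was 27.4 ± 4.54 and 44.0 ± 0.770 CPM in LiK and 26.2 ± 11.6 and 24.2 ± 9.56 CPM in LiKM on the normal diet and on ACR (SD, n = 3), and passed in LiK with the block (edgeR adjusted p = 0.0219). Npc2, the soluble partner of Npc1, overlapped between the diets in both strains (69.2 ± 5.16 and 82.7 ± 11.3 CPM in LiK).

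**Figure D2:**
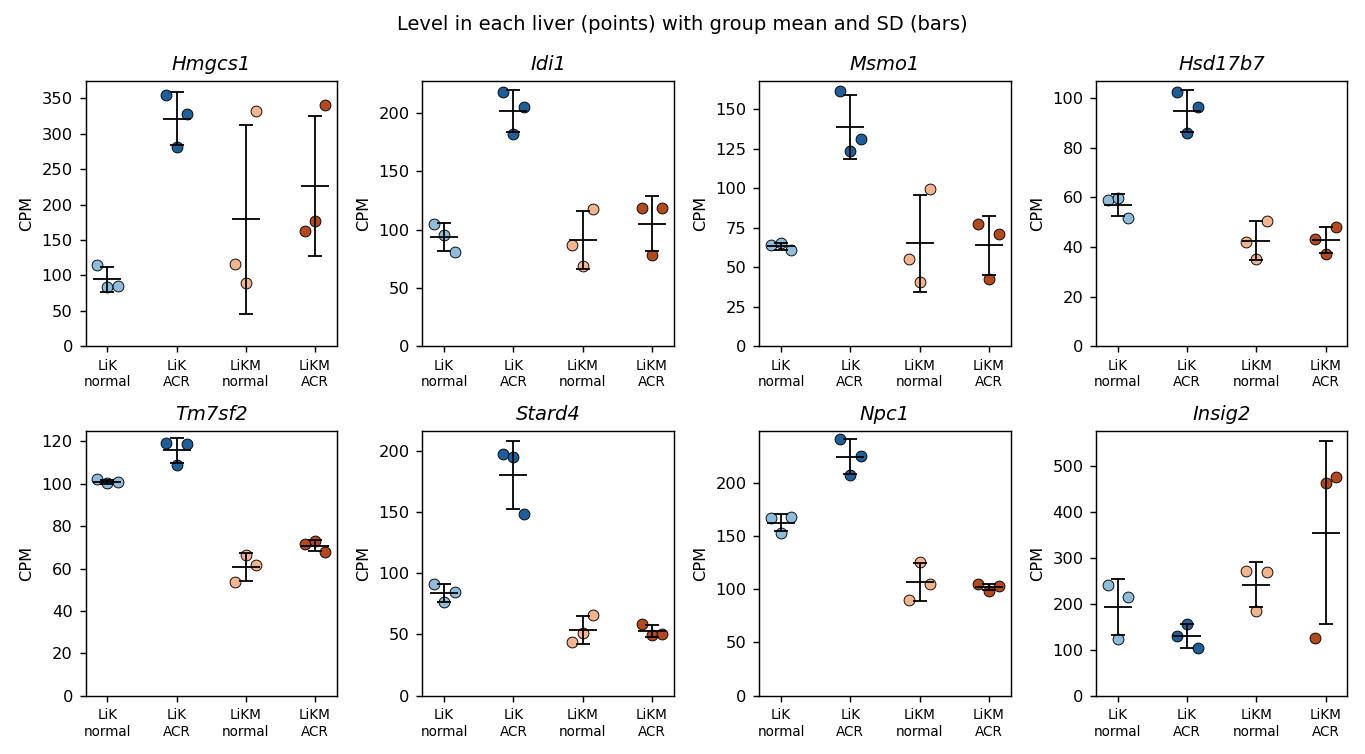
CPM of 8 members in each liver (points) with the group mean and SD (bars, n = 3). The LiK livers on ACR stand highest for Idi1, Msmo1, Hsd17b7, Stard4 and Npc1, and the LiKM livers lie below all LiK livers for Tm7sf2, Hsd17b7, Stard4 and Npc1.

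In LiKM, ACR left no member past the threshold in edgeR's quasi-likelihood test, as for all genes (0% of 13880). At an unadjusted p under 0.05 in edgeR there were 2 members, Ebp and Tm7sf2, against 7.24% of all genes. At the adjusted threshold limma-voom gave 0 members and DESeq2 gave 1, against 0.0937% and 0.569% of all genes. Of the 28, 23 were above 0, against 47.6% of all genes, with a median log2 of 0.21. All ACR livers lay above all LiKM livers on the normal diet for 3 (Tm7sf2, Ebp, Dhcr7), against 3.94% of all genes. The median of the 28 was 0.37 without LiKM normal 3, with 12 members at an unadjusted p under 0.05 (7.29% of all genes). It was 0.04 without LiKM normal 2 and 0.14 without LiKM ACR 3. With library size alone it was 0.05, where the median of all genes was -0.16. The comparisons of diet in LiK and in LiKM feed the difference between them and share all its libraries. The difference of the diet effects between the strains was below 0 for 21 members (median log2 -0.46, against -0.02 over all genes), and none passed in edgeR, where 0.0072% of all genes did. Without LiKM normal 3 the median difference was -0.19, and with library size alone -0.78, where that of all genes was -0.29. At an unadjusted p under 0.05 in edgeR there were 11 members, against 11.5% of all genes. There were 7 without LiKM normal 3 (8.97% of all genes) or without LiKM ACR 2 (8.39%). At the adjusted threshold DESeq2 gave 1 (Stard4) and limma-voom gave 0, against 1.15% and 0.0072% of all genes. The smallest p belonged to Stard4 (log2 -1.12 ± 0.23, adjusted p = 0.139), Hsd17b7 (-0.73 ± 0.20, 0.229) and Ebp (0.40 ± 0.13, 0.292) in edgeR. With the block for LiKM numbers, 5 members had a smaller diet effect in LiKM than in LiK (0.893% of all genes lower): Stard4, Hsd17b7, Idi1 (log2 -0.88 ± 0.17), Msmo1 (-1.11 ± 0.23) and Hmgcs1 (-1.27 ± 0.26), with adjusted p from 0.0263 to 0.0394. With the clock components as covariates, the median difference was log2 0.01 and 0 passed in edgeR, as for all genes (0%). At unadjusted p under 0.05 there were 0 in that fit, against 4.82% of all genes.

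**Figure D3:**
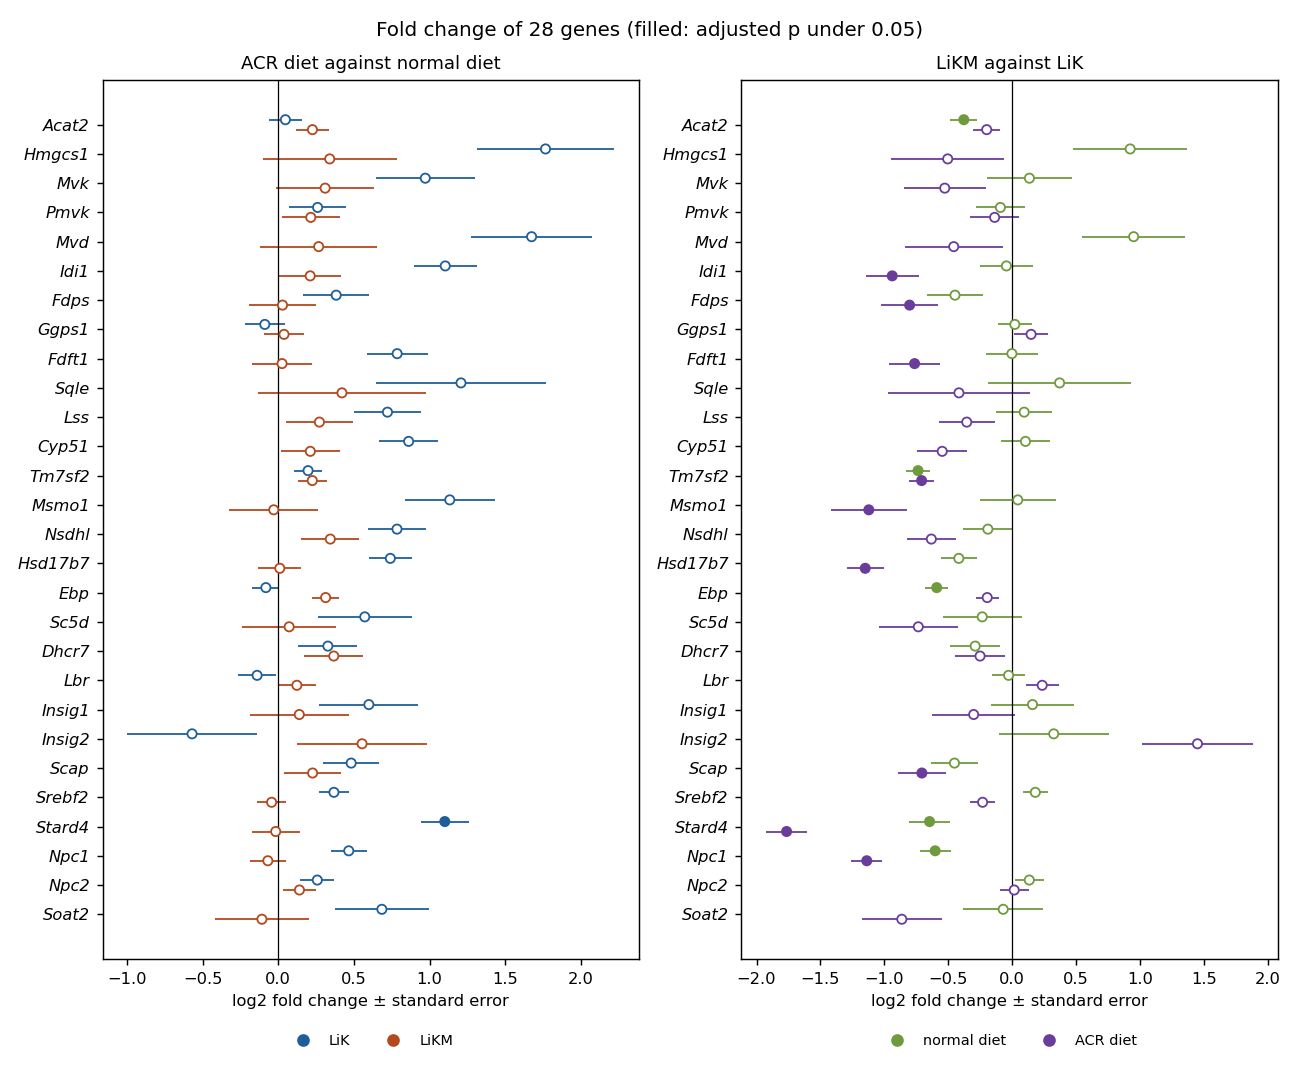
Log2 fold change with its standard error for each member (rows), ACR against normal diet in LiK and LiKM (left) and LiKM against LiK on each diet (right), from edgeR over 12 libraries. Filled points passed the adjusted threshold: Stard4 in LiK on the left, 5 members on the normal diet and 9 on ACR on the right.

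Between the strains on the normal diet, 5 members were lower in LiKM and none was higher, where 21.8% of all genes passed (8.61% as lower). With library size alone as the scaling, 3 were higher and 1, Tm7sf2, lower, where 4716 of all 13880 genes were higher and 115 lower. The median of all genes then moved to log2 0.40 and that of the 28 to 0.36. The 5 lower members with TMM scaling were Tm7sf2 (1.67-fold lower, log2 -0.74 ± 0.10, edgeR adjusted p = 0.000613), Ebp (1.51-fold, -0.59 ± 0.09, 0.00132), Npc1 (1.52-fold, -0.60 ± 0.12, 0.00591), Stard4 (1.57-fold, -0.65 ± 0.16, 0.0154) and Acat2 (1.30-fold, -0.38 ± 0.11, 0.0268). Acat2 read 83.3, 96.6 and 104.4 CPM in LiKM on the normal diet and 101.3, 122.4 and 108.7 CPM on ACR. In each of the 5 all 3 LiKM livers were below all 3 LiK livers. A count of 5 of 28 (17.9%) stands beside the 8.61% of all genes. The median of all 28 was log2 -0.04, against 0.02 over all genes, with 12 above 0. Without LiKM normal 3 it was -0.36 with 7 above 0, against -0.02 over all genes, and it was 0.05 without LiKM normal 2 and 0.01 without LiK normal 1. Hmgcs1 and Mvd had the highest fold changes (log2 0.92 ± 0.45 and 0.95 ± 0.40, edgeR adjusted p = 0.165 and 0.117) and overlapped between the strains. Stard4 lost its call without LiK normal 1 or LiKM normal 1 (adjusted p up to 0.0593), and Acat2 without any single one of LiK normal 1, 2 or 3 or LiKM normal 1 (up to 0.0856). The count of 5 was 3 without LiK normal 1 or LiKM normal 1 (11.7% and 16.6% of all genes passed) and 8 without LiKM normal 3 (16.3%). With the block 8 passed: Hsd17b7, Scap and these 5 lower (15% of all genes lower) and Hmgcs1 higher (log2 0.69 ± 0.18, adjusted p = 0.0172). The block is a fixed term, so its strain tests leave out the spread between the numbered LiKM mice.

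On ACR, 9 members were lower in LiKM and none was higher, where 9.79% of all genes passed (4.24% as lower). In the same comparison 7 of 18 clock genes passed, 3 higher and 4 lower in LiKM. The median of the 28 was log2 -0.52, against 0.02 over all genes, and 19 of the 28 had all LiKM livers below all LiK livers, against 16% of all genes. Stard4 was 3.4-fold lower (log2 -1.76 ± 0.16, edgeR adjusted p = 0.00111), Npc1 2.2-fold (-1.14 ± 0.12, 0.00208), Hsd17b7 2.22-fold (-1.15 ± 0.14, 0.00256) and Tm7sf2 1.63-fold (-0.71 ± 0.10, 0.00302). Idi1 (1.92-fold), Fdft1 (1.70-fold), Scap (1.63-fold), Msmo1 (2.18-fold) and Fdps (1.74-fold) had adjusted p from 0.0184 to 0.0415. Fdps read 177.9, 134.3 and 245.3 CPM in LiKM on the normal diet and 172.5, 195.4 and 200.4 CPM on ACR. This comparison shares the LiK livers on ACR with the diet comparison above, and the strain comparison on the normal diet shares the other LiK livers with it. With single mice left out, the calls of Stard4, Npc1, Hsd17b7 and Tm7sf2 stayed in all 12 fits. All of Idi1, Fdps, Fdft1, Msmo1 and Scap lost their calls without LiK ACR 1, LiK ACR 2 or LiKM ACR 2. Without LiK normal 3 or LiK ACR 3 the calls of Fdps, Fdft1, Msmo1 and Scap were lost, without LiKM ACR 1 those of Fdps, Fdft1 and Scap, without LiKM ACR 3 those of Fdps and Msmo1, and without LiK normal 1 that of Msmo1 (adjusted p up to 0.143). The count of 9 was 4 without LiK ACR 1, LiK ACR 2 or LiKM ACR 2, where 3.99%, 2.2% and 5.26% of all genes passed. It was 5 without LiK normal 3 or LiK ACR 3 (7.41% and 5.38% of all genes). With the block 13 were lower (9.31% of all genes lower). With the clock components as covariates 0 were lower, where 0.036% of all genes passed. There 5 had an unadjusted p under 0.05, against 8.34% of all genes. In that fit the log2 fold changes were -1.03 ± 0.30 for Stard4, -0.85 ± 0.29 for Npc1, -0.84 ± 0.27 for Hsd17b7 and -0.53 ± 0.22 for Tm7sf2 (edgeR adjusted p from 0.446 to 0.572). Insig2 had the other sign, with a log2 fold change of 1.45 ± 0.44 on ACR (edgeR adjusted p = 0.0613, DESeq2 adjusted p = 0.00592), and number 1 of LiKM on ACR lay among the LiK livers.

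Markers of some other cell types moved with strain. The summed level of 12 biliary and progenitor markers was 54.0 to 211 CPM in LiK livers and 361 to 1100 CPM in LiKM livers, and 11 of 11 tested were higher in LiKM on the normal diet (median log2 4.40) and 10 of 11 on ACR. Of 9 tested T and NK cell markers, 6 were higher and 1 lower in LiKM on the normal diet. Higher there too were 3 of 10 stellate, 1 of 10 macrophage and 1 of 8 endothelial markers. Among all 13880 genes 1836 were higher in that comparison, so the macrophage and endothelial counts did not exceed the share of all genes. With ACR, 2 of the T and NK and 3 of the macrophage markers were higher, where 771 of all 13880 genes were. The summed level of 14 hepatocyte markers was 134000 to 185000 CPM in LiK and 102000 to 116000 CPM in LiKM on the normal diet. There 2 of 14 were lower (8.61% of all genes), with a median log2 of -0.52. On ACR the sums were 169000 to 178000 against 144000 to 181000 CPM, and 0 of 14 were lower (4.24% of all genes). None of these lists had its markers at 0 throughout. In bulk tissue, fewer hepatocytes and less RNA per hepatocyte cannot be told apart, and the part of cell makeup in the strain differences was not tested.

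Of 11 genes that cut SREBP2 or turn over INSIG and the reductase (proteases, ubiquitin ligases and erlins), 2, Erlin1 and Rnf145 (edgeR adjusted p = 0.0324 and 0.049), were lower in LiKM on ACR. Of all genes 4.24% were lower there. In the diet comparisons 0 of 11 passed, with medians of log2 -0.04 in LiK and 0.04 in LiKM. Of 14 genes that use isoprenoids for dolichol, ubiquinone and prenylation 0 passed in any comparison, and their medians lay between log2 -0.15 and -0.02.

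Of 11 further sterol-regulated genes outside the pathway, 3 were lower in LiKM on the normal diet and 4 on ACR. Of all genes 8.61% and 4.24% were lower. Fads2 and Fads1, desaturases of polyunsaturated fatty acids, were 1.69-fold and 1.59-fold lower on the normal diet (edgeR adjusted p = 0.0154 and 0.0174) and 2.58-fold and 2.22-fold lower on ACR (0.00322 and 0.00481). Acss2, which makes acetyl-CoA from acetate, was 2.22-fold lower on the normal diet (0.00531), and Tmem97 and Mmab were lower on ACR (0.0271 and 0.0497). Of 17 genes of sterol efflux, LXR and bile acid synthesis, 2 were lower in LiKM on the normal diet (Cyp27a1 and Lipa). On ACR 1 was lower (Abcg8, 1.84-fold, edgeR adjusted p = 0.0221). Both counts were near the shares of all genes, 8.61% and 4.24% lower. Neither list had a member past the threshold for diet in either strain.

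In fatty acid synthesis, which SREBP1 controls, the signs were different. Of its 14 genes 2 were above 0 in LiK on ACR (median log2 -0.87), against 24 of 28 for the cholesterol genes (median 0.59), and 0 passed. Fasn was 7657, 3773 and 4679 CPM without ACR and 1440, 1387 and 2537 CPM on ACR in LiK, without overlap (log2 -1.59 ± 0.42, edgeR adjusted p = 0.145). In LiKM Fasn was 3990, 3452 and 1634 CPM without ACR and 3271, 3440 and 1507 CPM on ACR, lowest in number 3 of each diet, and the list's median was log2 -0.03. On the normal diet 4 of the 14 (Acacb, Pklr, Me1 and Scd1) were lower in LiKM (8.61% of all genes), and on ACR 0 were (4.24%).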

How the data were processed

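Gene expression was measured by RNA sequencing of total RNA with the TruSeq Stranded mRNA kit, per the labels' protocols. The deposited table holds expected counts per gene symbol. Per the submitters' processing notes, featureCounts 2.0.0 and build mm10 were used. Aligner, annotation and counting by strand: not given in the sources used here. Of the deposited counts above 0, 18.9% are not whole (tolerance 1e-09), and all were rounded. Genes were filtered with filterByExpr by group, scaled with TMM factors (0.83 to 1.243) and tested with edgeR 4.0.16 (R 4.3.3, robust quasi-likelihood, biological coefficient of variation 0.203), a single fit of 12 libraries with a term per group and 5 contrasts. DESeq2 1.42.0 and limma 3.58.1 served as alternatives. Standard errors are the log2 fold change over the root of F, and SD are over 3 mice. Each sample has its own numbered title and its own identifier. Nothing further says that the samples are separate animals, so p-values measure the spread between these samples. Library pairs within groups differed by more than counting error, with chi-square values of 15.7 to 65.1 for each degree of freedom.

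The genes and the other lists were chosen with earlier results of these data known. All 28 are named; those past the threshold in any comparison, and Hmgcs1, Fdps, Fdft1, Sqle, Srebf2, Insig1, Insig2 and Stard4, are given in every library. Of other lists, up to 3 members of smallest p are named; Mmab, Scd1 and Fasn were added after their values were seen. Pairing was decided from the correlation across genes of the deviations of same-numbered mice: 0.37, 0.22 and 0.48 between the diets in LiKM, and -0.10 to 0.08 for same-numbered mice of all other pairs of groups. Each LiKM pair exceeded 0.1, so the replicate block was used for LiKM mice across diets; this pairing comes from the data, not from the labels. The alternatives changed scaling, filter, tool, samples, block and covariates. Positions come from GENCODE M21 and promoter sequences from RefSeq (GRCm38.p6). The edgeR steps were tested on simulated data. Some genes are not reported here.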

Additional observations from a re-analysis of the deposited data

Results flagged for a closer look

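In Ebp the diet effect had opposite signs in the strains: all 3 LiK livers on ACR were below, and all 3 LiKM livers on ACR above, the livers of their strain on the normal diet. The difference of the diet effects was log2 0.396 ± 0.126 (SE), with an unadjusted p of 0.00842 and an adjusted p of 0.292 in edgeR, so it did not pass.

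In Srebf2 the strain difference had opposite signs on the diets: all LiKM livers were above all LiK livers on the normal diet and below them on ACR. The difference of the diet effects was log2 -0.412 ± 0.137 (SE), with an unadjusted p of 0.0112 and an adjusted p of 0.306 in edgeR, which did not pass either.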

How the results depend on the processing

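Counts of members past the threshold moved with the processing. With library size alone, 3 members were higher and 1 lower for strain without ACR, where 34.8% of all genes passed. For strain without ACR, 5 members passed, 8 with the replicate block within LiKM, 8 with 2 clock components as covariates, 10 without LiKM normal 3, LiKM ACR 2 and LiKM ACR 3 together, and 3 to 8 with single mice left out. On ACR, 9 differed (9.79% of all genes), 4 with library size alone (8.11%) and 0 with the clock components (0.036%). With single mice left out it was 4 to 12 (2.2% to 12.1% of all genes). For diet in LiK, 1 rose (0.195% of all genes passed), 2 without the filter (0.198%) and 11 with DESeq2 (2.86%). It was 15 with only the LiK groups (6.34%) and 15 with the replicate block within LiKM (5.05%). It was 2 with the replicate block in all groups (0.259%), and 0 with the prefix of the sample identifiers (0.115%) or the clock components (0%). With single mice left out it was 0 to 9 (0% to 0.77% of all genes). Without the 3 LiKM mice the median log2 of the members was 0.58. For diet in LiKM, 0 passed (0% of all genes) and 1 with DESeq2 (0.569%). For the difference, 0 passed (0.0072% of all genes), 1 with DESeq2 (1.15%) and 5 with the replicate block within LiKM (1.87%), a pairing taken from these data.

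Signs are compared only where a value passed. Acat2 turned on the normal diet with library size alone (log2 0.015, adjusted p = 0.936), a scaling that moved the median of all genes to log2 0.40, and Fdft1 and Msmo1 turned on ACR with the clock components (0.205 and 0.181, adjusted p = 0.82 and 0.928). Stard4, Npc1, Tm7sf2 and Hsd17b7 lost their ACR calls only with the clock components, which left 0.036% of all genes past the threshold, with log2 fold changes from -0.525 (Tm7sf2) to -1.027 (Stard4) and larger standard errors; the cause was not tested. The lowest count of a member in a library was 63 (Mvd in LiK normal 3).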
